A study of Drosophila melanogaster with 2 samples.

Results

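The genes described here are the core components of the BMP signalling pathway of Drosophila melanogaster, and the data are the signal of the germline linker histone dBigH1 over each of them in chromatin of whole testes. Members were the 10 rows of the deposited gene table with the symbols dpp, gbb, tkv, put, sax, wit, Mad, Med, Dad and shn, out of 15421 listed genes, and all 10 were found. They were grouped by role into 2 ligands, 4 receptors and 4 nuclear effectors. Both libraries came from whole testes of adult males of the w1118 stock, which carries a mutation of the eye colour gene white and no other stated allele, and no treatment was given. The dBigH1 group was 1 library precipitated with an antibody against dBigH1, and the control group was 1 library of input DNA with no antibody. Per the labels' protocols, chromatin from 2000 dissected testes, freed of accessory glands, was sheared in pools of 1000 to between 200 and 500 bp. Each group is therefore a single library from pooled animals, with no replicate against which a difference could be tested. Whole testes hold germ cells of every stage together with somatic cells, so fewer cells carrying dBigH1 at a gene and less dBigH1 per cell cannot be told apart.

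In the Drosophila testis, BMP ligands are made by somatic cells around the germline stem cells and act on those stem cells at short range. A ligand dimer joins type I and type II receptor kinases, the type II receptor activates the type I receptor, and the type I receptor phosphorylates the Smad protein Mad. Mad then enters the nucleus with its partner Medea and, with the zinc finger protein Schnurri, represses the differentiation gene bam. dBigH1 is an H1-type histone that binds the linker DNA between nucleosomes.

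Sequencing depth was 12747726 reads for input and 2864636 for dBigH1, with medians of 197 and 20 reads a gene. RPKM is the number of reads per kb of gene, scaled to the size of the library. Gene length in the table was the whole span from start to end, so introns were counted. As these are DNA libraries, the tissue could not be checked against expressed markers. Genes of the X, of which males carry a single copy, had a median input RPKM of 4.74 against 8.60 on arms 2L, 2R, 3L and 3R, where all 10 members lie. Below, the ratio is the log2 ratio of dBigH1 to input reads, scaled by library totals and set to 0 at the median gene. It is followed by its 95% exact Clopper-Pearson interval, which covers counting error only.

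The BMP genes lay close to the typical gene, with a lower tail made of its shortest members. Their median ratio was 0.03, against 0 for all listed genes by construction, and they ranged from -1.13 for gbb to 0.27 for shn. None of the 10 exceeded the median gene by 1.5-fold or more, which 16.2% of all genes did. The ligand gene gbb and the receptor gene sax, 2 of 10, lay under it by that factor or more, beside 17.3% of all genes. The interval lay wholly above the median gene for dpp, tkv and shn, 3 of 10, where it did so for 17.9% of all genes. These 3 are among 5 members in the longest of 10 length classes, whose genes hold many reads. In that class the interval lay wholly above for 1166 of 1542 genes. For gbb and sax the interval lay wholly below the median gene, where it did so for 9.41% of all genes. For put, wit, Mad, Med and Dad, the other 5, the interval included the median gene. With so few members these counts do not set the BMP genes apart from the background shares.

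**Figure D1:**
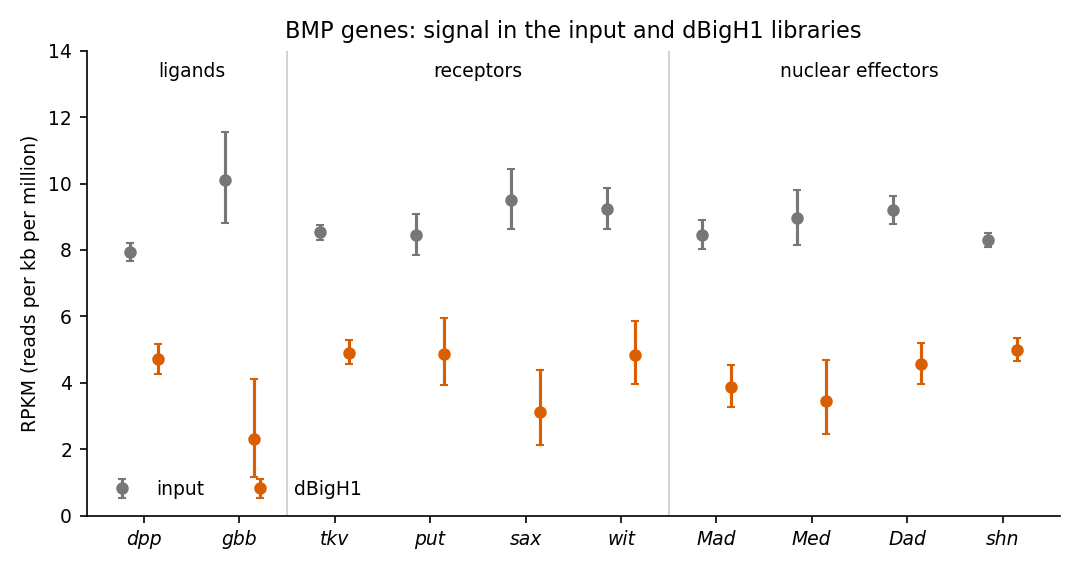
RPKM of each BMP gene in the input library (grey) and in the dBigH1 library (orange), by role, with bars for the 95% exact Poisson interval of the reads. Input RPKM lay between 7.94 for dpp and 10.1 for gbb, while dBigH1 RPKM spread from 2.30 for gbb to 4.99 for shn.

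The pair of ligands stood at opposite ends of the order. dpp encodes the BMP2/4-type ligand Decapentaplegic, and the gene (FBgn0000490, chromosome 2L, 2428372 to 2459823, build dm3, plus strand) spans 31452 bp. It had 3185 input reads and 424 dBigH1 reads, where a gene at the median ratio would have had 357. Its RPKM was 7.94 in input and 4.71 in dBigH1, and its ratio was 0.25 (0.10 to 0.40). The input RPKM of dpp was the lowest of the 10 members, and its ratio was the second highest.

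gbb encodes the BMP5/6/7-type ligand Glass bottom boat, which acts beside Dpp on germline stem cells and is known as the muscle-derived signal for growth of motor nerve terminals. The gene (FBgn0024234, chromosome 2R, 19739106 to 19740772, plus strand) is the shortest member, at 1667 bp. It had 215 input reads and 11 dBigH1 reads, where the median ratio would have given 24.1. Its RPKM was 10.1 in input, the highest of the members, and 2.30 in dBigH1, the lowest. The ratio was -1.13 (-2.15 to -0.26), or 0.457 of the median gene with an interval of 0.225 to 0.834, and 4.95% of all genes lay lower. The dBigH1-to-input odds of reads in dpp were 2.60 times those in gbb, with an exact conditional 95% interval of 1.41 to 5.33. No other gene of the table overlapped dpp or gbb.

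Receptors came next, with sax apart from the other 3 by its point value. tkv encodes Thickveins, the main type I receptor for Dpp in germline stem cells. The gene (FBgn0003716, chromosome 2L, 5218996 to 5271353, minus strand) spans 52358 bp and had 5695 input reads and 736 dBigH1 reads, against 638 at the median ratio. Its RPKM was 8.53 in input and 4.91 in dBigH1, and its ratio of 0.21 (0.09 to 0.32) was one of the best determined, since only shn had more reads.

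sax encodes Saxophone, the other type I receptor, which responds mainly to Gbb. The gene (FBgn0003317, chromosome 2R, 3693983 to 3697572, plus strand) spans 3590 bp and had 435 input reads and 32 dBigH1 reads, where 48.7 would have matched the median ratio. Its RPKM was 9.51 in input and 3.11 in dBigH1, with a ratio of -0.61 (-1.17 to -0.09). The odds of tkv were 1.76 times those of sax (1.21 to 2.62), so the type I receptor genes differed from each other by more than counting error. Against sax, the odds of put were 1.76 times as high (1.14 to 2.76) and those of wit 1.60 times (1.05 to 2.50).

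Both type II receptor genes lay near the median gene. put encodes Punt, the type II receptor that germline stem cells need, and the gene (FBgn0003169, chromosome 3R, 10444752 to 10451425, minus strand) spans 6674 bp. It had 719 input and 93 dBigH1 reads, an RPKM of 8.45 and 4.86, and a ratio of 0.21 (-0.12 to 0.52). wit encodes Wishful thinking, the type II receptor known for synapse growth in motor neurons, and the gene (FBgn0024179, chromosome 3L, 4064152 to 4071717, minus strand) spans 7566 bp. It had 891 input and 105 dBigH1 reads, an RPKM of 9.24 and 4.84, and a ratio of 0.07 (-0.23 to 0.37). The odds of put were 1.10 times those of wit, and the interval of 0.807 to 1.49 does not tell them apart.

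Nuclear effectors were all within 1.5-fold of the median gene. Mad encodes the Smad that the type I receptors phosphorylate, and the gene (FBgn0011648, chromosome 2L, 3146056 to 3159643, minus strand) spans 13588 bp. It had 1464 input and 151 dBigH1 reads, an RPKM of 8.45 and 3.88, and a ratio of -0.12 (-0.37 to 0.12). Med encodes Medea, the common partner Smad, and the gene (FBgn0011655, chromosome 3R, 27436768 to 27440922, plus strand) spans 4155 bp. It had 474 input and 41 dBigH1 reads, an RPKM of 8.95 and 3.44, and the lowest ratio of the effectors, at -0.37 (-0.87 to 0.09).

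Dad encodes the inhibitory Smad, which is itself switched on by the pathway and dampens it. The gene (FBgn0020493, chromosome 3R, 12879729 to 12896135, plus strand) spans 16407 bp and had 1923 input and 214 dBigH1 reads, an RPKM of 9.19 and 4.55. Its ratio of -0.01 (-0.22 to 0.20) was that of the median gene within counting error. shn encodes Schnurri, the co-repressor that Mad and Medea recruit. The gene (FBgn0003396, chromosome 2R, 7046591 to 7104899, plus strand) is the longest member, at 58309 bp, and had the most reads, 6170 in input and 833 in dBigH1, against 691 at the median ratio. Its RPKM was 8.30 and 4.99, and its ratio of 0.27 (0.16 to 0.37) was the highest of the 10. The odds of shn were 1.31 times those of Mad (1.09 to 1.58) and 1.56 times those of Med (1.12 to 2.22). Thus shn stood above both by more than counting error. Mad, Med and Dad did not differ from each other beyond it. Gene length was not taken into account in these odds.

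**Figure D2:**
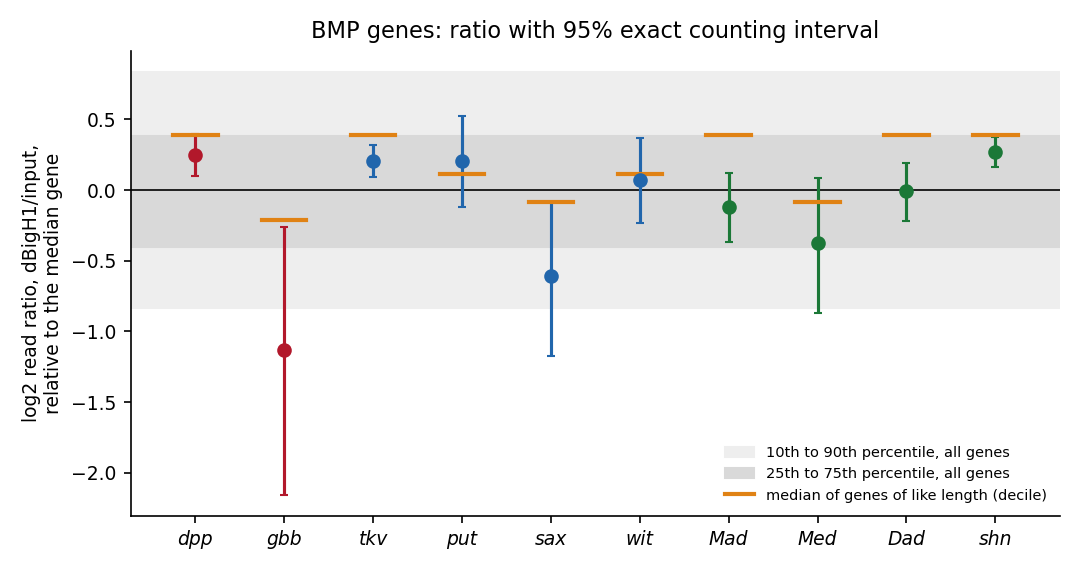
Log2 read ratio of each BMP gene relative to the median gene, with its 95% exact interval, coloured by role. Grey bands show where all listed genes lie and orange bars the median of genes of like length. Every member except put lies below its orange bar, and gbb at -1.13 is the lowest of the 10.

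From lowest to highest the order of ratios was gbb, sax, Med, Mad, Dad, wit, tkv, put, dpp and shn. None of the 9 pairs of neighbours in that order differed beyond counting error. Of all 45 pairs, 22 did at an unadjusted 95% level, and gbb took part in 7 of them, sax in 6, and dpp and shn in 5 each. wit took part in 2, the fewest. The roles did not separate. Their medians were -0.44 for ligands, 0.14 for receptors and -0.06 for nuclear effectors, and each role held 1 gene whose interval lay wholly above the median gene. The ligand median is the midpoint of 2 distant values. With the reads of each role summed, which weights the long genes, the ratios were 0.19 (0.04 to 0.34) for ligands, 0.16 (0.06 to 0.25) for receptors and 0.14 (0.05 to 0.23) for effectors. Summed in the same way, all listed genes were at 0.40 and those of arms 2L, 2R, 3L and 3R at 0.32. The point value of each role lay below both, though the interval of the ligands included the value of the arms. The summed odds of effectors were 0.965 times those of ligands (0.859 to 1.09), and 0.990 times those of receptors (0.904 to 1.08). For receptors against ligands the value was 0.975 (0.864 to 1.10).

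Gene length moved with the ratio among the members. The 3 longest genes, shn, tkv and dpp, held 3 of the 4 highest ratios, and the 3 shortest, gbb, sax and Med, held the 3 lowest. Across the 10 members, which share both libraries, Spearman's rho between length and ratio was 0.82. It was 0.42 across the 6883 genes of the 4 arms that are at least as long as gbb, and 0.07 across all 15421 genes, where the shortest genes are also high. Length was related to both libraries, with rho of 0.81 to dBigH1 RPKM and -0.71 to input RPKM across the members. Input and dBigH1 RPKM ran opposite ways over the 10 genes, with a rho of -0.66, while for the 6883 arm genes it was -0.09 and for all genes 0.30.

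Set against genes of like length, the upper side of the order disappeared. Listed genes were divided into 10 classes of equal size by length. The longest class, from 12725 to 395988 bp with a median length of 25686 bp, had a median ratio of 0.39. To it belong shn, tkv, dpp, Dad and Mad. All 5 lay below that median ratio, shn by 0.12, dpp by 0.14, tkv by 0.18, Dad by 0.40 and Mad by 0.51 on the log2 scale. Mad ranked at percentile 4.47 of its class, Dad at 8.69 and shn at 34.0. Mad, at 13588 bp, and Dad, at 16407 bp, stand near the short end of this class and were compared with mostly longer genes. The next shorter class had a median ratio of 0.11.

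For shn, tkv, Dad and Mad, 4 of these 5 genes, the interval lay wholly below the class median, as it did for 25.7% of the class. For dpp its upper end was 0.01 above that median. gbb was 0.92 below the median of its own class (interval of the difference -1.94 to -0.05), at percentile 7.02, and sax 0.52 below, at percentile 11.1, with its upper bound just under the class median. In all, 9 of 10 members lay below the median of their length class, with put the exception at 0.10 above. The interval lay wholly below it for 6 of 10 and wholly above it for 0 of 10, against 9.31% and 14.2% of all genes. The members hold more reads than most genes, and deep genes have narrow intervals, so the share of the longest class is the nearer comparison for 5 of them.

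**Figure D3:**
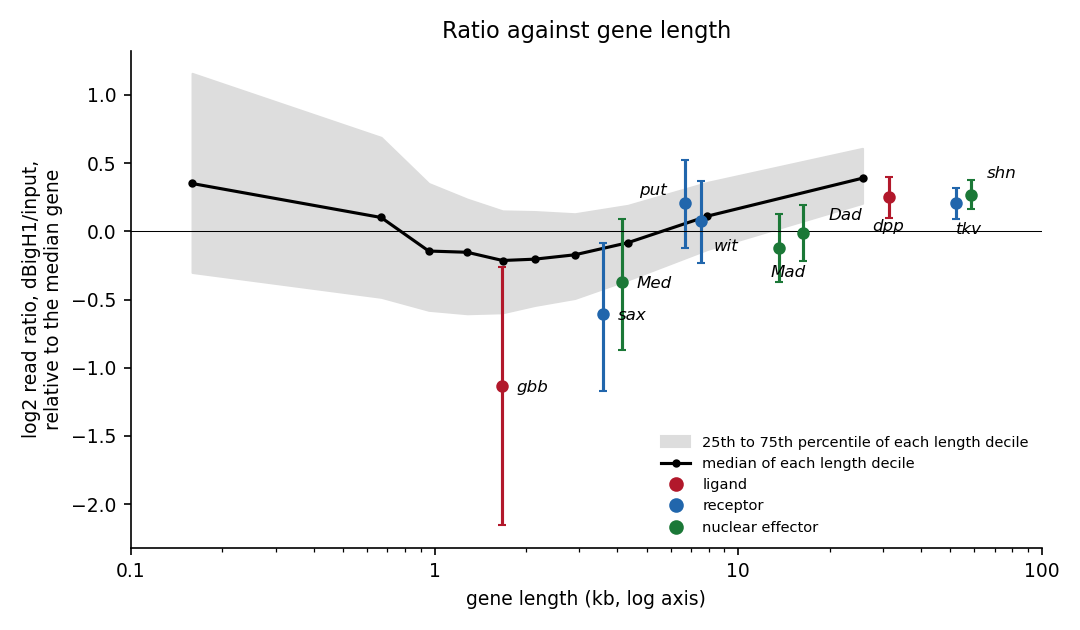
Log2 read ratio against gene length on a log axis, with all listed genes shown as the median (black) and middle 50% (grey) of 10 length classes, and the BMP genes as points with 95% exact intervals. The ratios tend to rise from gbb at 1667 bp to shn at 58309 bp, though Mad and Dad lie below the shorter put and wit. Apart from put, the members lie under the median of their class, which is 0.39 for the 5 longest.

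Input signal was a further measure that moved with the ratio, of which it is the denominator. Relative to the median of genes in the same of 10 equal classes of input RPKM, a comparison chosen after seeing the data, shn was at 0.28 (0.17 to 0.38), tkv at 0.21 (0.10 to 0.32) and dpp at 0.16 (0.01 to 0.31). wit was at 0.28 (-0.02 to 0.58), put at 0.21 (-0.11 to 0.53) and Dad at 0.13 (-0.08 to 0.33). Mad was at -0.11 (-0.36 to 0.13) and Med at -0.24 (-0.74 to 0.22). gbb was at -0.83 with an upper bound of 0.04, and sax at -0.40 with an upper bound of 0.12. By that measure the interval lay wholly above for 3 members and wholly below for 0, against 14.1% and 8.61% of all genes. These 3 belong to the longest length class, whose many reads give narrow intervals. In that class the interval lay wholly above for 792 of 1542 genes and wholly below for 87. The sides of shn, tkv, dpp, wit and Dad thus differed between the length and the input comparison. gbb, sax, Med and Mad had negative values in both, and put had positive ones. What part length or input signal had in the differences between members was not tested.

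Reads are shared where genes overlap, which touched 4 of the 10 members. Med shares 1619 bp, or 39.0% of its length, with the cyclin gene CycG, whose ratio was -0.05 (-0.27 to 0.16). shn shares 13121 bp, or 22.5% of its length, with CG13229, which had a ratio of 0.41 (0.25 to 0.56). wit shares 400 bp with dib, a gene for an enzyme of ecdysone synthesis with a ratio of 0.22 (-0.40 to 0.78), and holds CG32259 within its span.

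tkv holds 6 listed genes within its span, among them the cytochrome P450 genes Cyp4ac1, Cyp4ac2 and Cyp4ac3, and overlaps the troponin gene TpnC25D by 60 bp. Cyp4ac1 had a ratio of -0.62 (-1.42 to 0.09), Cyp4ac2 of 0.14 (-0.50 to 0.74) and Cyp4ac3 of 0.10 (-0.59 to 0.72). A transfer RNA gene in tkv (FBgn0051914) had 7 dBigH1 reads against 14 input reads, a ratio of 2.16 (0.61 to 3.56), while another (FBgn0051971) had 1 against 19, at -1.09 (-6.47 to 1.56). Both span only 72 bp, and the shortest length class, up to 519 bp, had a median ratio of 0.35. The last nested gene, listed without a symbol (FBgn0046776), was at -0.12 (-0.86 to 0.55). When the reads of the nested genes were taken out, an alternative chosen after seeing the data, tkv kept 642 dBigH1 and 4833 input reads and had a ratio of 0.25 (0.13 to 0.37). Without CG32259, wit was at -0.0005 (-0.34 to 0.32). The value of tkv was thus as high without the 94 dBigH1 reads of its nested genes.

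gbb lies 29 bp from bgcn, which encodes the partner of Bam in the switch to differentiation. bgcn had a ratio of -0.48 (-0.90 to -0.08), and ytr, 487 bp before gbb, was at -0.03 (-0.53 to 0.43). Among the 32 genes within 50 kb of gbb the median was -0.37, and 28 of them lay above gbb. Of the 20 genes within 50 kb of sax, 18 lay above it, and their median was 0.08. Over all genes, only 4.95% lay below gbb and 16.5% below sax, so most genes lie above either of them. The direct neighbours of sax, CG1553 at -0.19 (-0.56 to 0.17) and CG1550 at -0.34 (-0.99 to 0.25), were less far below the median gene by point value.

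The nearest gene on each side of Mad was low. CG12400, 208 bp before its start coordinate, was at -1.10 (-2.34 to -0.08), and gkt, which encodes a tyrosyl-DNA phosphodiesterase and begins 307 bp beyond its end, at -1.30 (-2.32 to -0.43). Over the 13 genes within 50 kb of Mad, however, the median was -0.04, and 8 of them lay above Mad. The nearest non-overlapping gene before Med is RpL6, a ribosomal protein gene that lies 14842 bp away, beyond CycG. RpL6 was at -1.17 on 8 dBigH1 reads (-2.41 to -0.16). CG11539, on the other side of Med, was at 0.14 (-0.81 to 0.98), and the 13 genes within 50 kb of Med had a median of -0.23, with 8 above Med. For dpp the nearest gene before it, CG9886, was at -0.78 (-1.58 to -0.08). The nearest after it, a tyrosine transfer RNA gene (FBgn0012017), was at -0.84 on 1 dBigH1 read (-6.23 to 1.84). The 16 genes within 50 kb of dpp had a median of -0.23, and 5 of them lay above dpp.

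On the sides of Dad, Patr-1, an mRNA decay factor gene, was at -0.44 (-0.93 to 0.02) and ns1, a nucleostemin gene, at -0.41 (-1.07 to 0.20), and the 18 genes within 50 kb had a median of 0.08. Near shn, the short gene CG13230 was at 1.30 on 8 dBigH1 reads (-0.04 to 2.47), and CG9084 on the other side was at 0.11 (-0.51 to 0.68). The 33 genes within 50 kb of shn had a median of 0.11. Around wit the nearest genes were CG18869 at 0.09 (-0.58 to 0.71) and Faa, which encodes an enzyme of tyrosine breakdown, at -0.51 (-1.25 to 0.14). Beside tkv, CG14034 was at 0.49 (-0.20 to 1.11) and Bsg25D at -0.17 (-0.52 to 0.15). For 5 of the 10 members the ratio was above the median of the genes within 50 kb.

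put lies 37.7 kb from BigH1, the gene that encodes dBigH1 and one of the highest ratios in the table. BigH1 (FBgn0038252) had 439 dBigH1 reads against 168 input reads, a ratio of 4.54 (4.28 to 4.81). The 7 genes between them had a median of 0.32 and ranged from -1.17 to 1.20, and put itself, at 0.21, was near the median gene. The nearest gene to put on that side, 52 bp away, is His4r (FBgn0013981), a replication-independent histone H4 gene. It was at 0.50 (-0.24 to 1.17). Symbols of other H4 genes are joined to it in the listing, and whether reads are shared with them was not tested. CG14853, 43 bp away on the other side, was at 0.10 (-0.21 to 0.40).

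**Figure D4:**
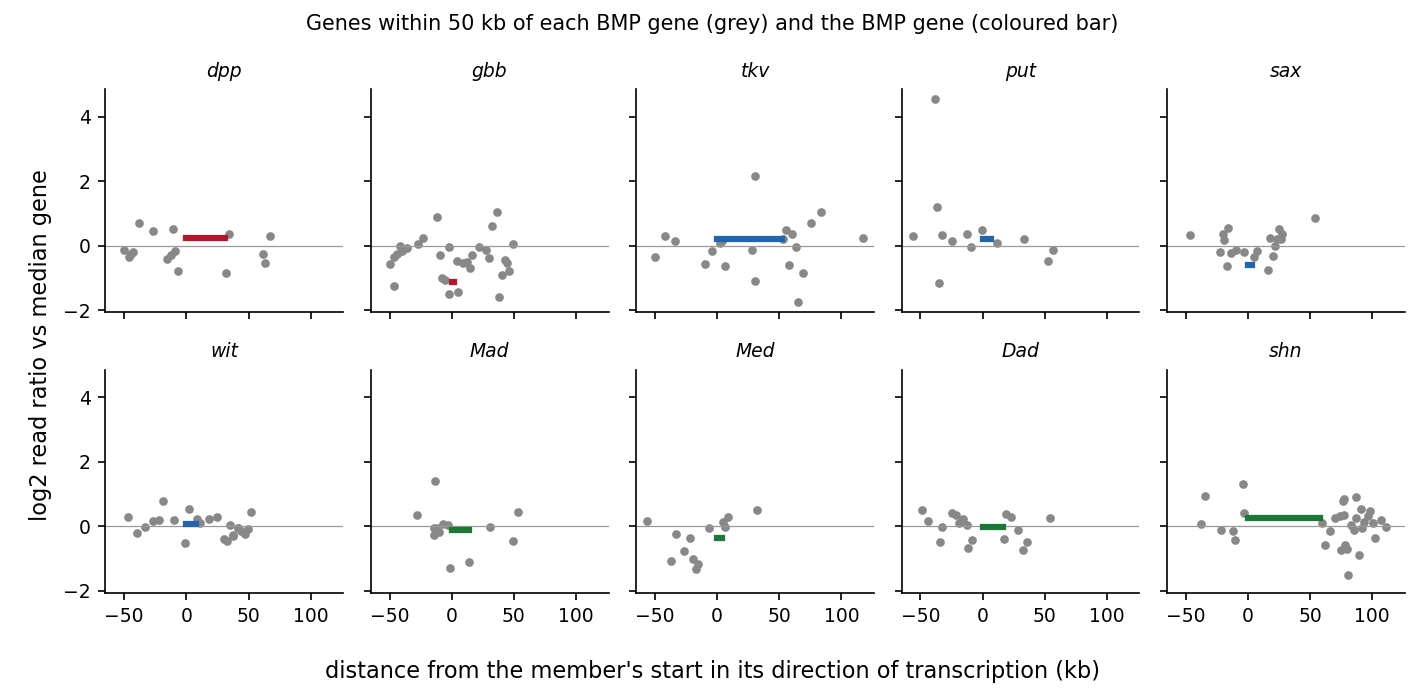
Ratio of each gene within 50 kb of a BMP gene (grey points, at the distance of the gene's midpoint from the BMP gene's start, in its direction of transcription) and of the BMP gene itself (coloured bar over its length). The single point at 4.54 in the put panel is BigH1, while the bar of put lies at 0.21.

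Other genes of the BMP and activin branches were taken from a list of 38, of which 37 were matched in the table. dally had no match. Of the 37, 6 exceeded the median gene by 1.5-fold or more, 3 lay as far below it and 28 between, and their median ratio was 0.17. The background shares of all genes were 16.2% and 17.3%, and the counts are given as a description. The interval lay wholly above the median gene for 16 of the 37 and wholly below it for 3, against 17.9% and 9.41% of all genes. Their median length was 10456 bp, against 1884 bp for all genes, and long genes have more reads and narrower intervals.

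Among the other ligands, the 3 on the small chromosome 4 were the high ones. myo, which encodes the ligand Myoglianin, was at 0.93 (0.55 to 1.29) on 76 dBigH1 and 356 input reads. Actbeta, the activin gene, was at 0.71 (0.37 to 1.03), and mav, which encodes Maverick, at 0.57 (0.05 to 1.05). Chromosome 4 as a whole had a median of 0.71 over its 93 genes, so these ligands had values near those of their chromosome. On 2L, the activin-type ligand gene daw was at -0.28 (-0.69 to 0.11), and scw, which encodes a BMP ligand of the embryo, at -0.65 on 10 dBigH1 reads (-1.74 to 0.27). babo, the type I receptor of the activin branch, was at 0.17 (-0.11 to 0.44), and its Smad, Smox, at -0.08 (-0.72 to 0.51).

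The 13 extracellular regulators matched had a median of 0.18. The highest were srw, a short gene for a secreted BMP-binding protein, at 0.71 (-0.27 to 1.57), and Fs, which encodes follistatin, at 0.68 (0.50 to 0.86). The lowest was tsg, which encodes the BMP-binding protein Twisted gastrulation, at -1.01 on 2 dBigH1 reads (-4.11 to 0.95). The collagen IV genes Cg25C and vkg, whose products bind Dpp, were at -0.57 (-0.97 to -0.20) and 0.06 (-0.17 to 0.27).

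Among 7 intracellular regulators, Snoo, a Smad co-repressor gene of 92887 bp, was the highest at 0.80 (0.72 to 0.87), and CtBP, a transcriptional co-repressor gene, was at 0.61 (0.42 to 0.80). fu, which encodes a kinase that with Smurf lowers Tkv in the daughters of ovarian stem cells, was the lowest at -0.91 (-1.80 to -0.14) and is X-linked. Smurf itself, listed as lack, was at 0.16 (-0.10 to 0.41). Sara, another gene of this list, was at -0.52 (-0.97 to -0.11).

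None of the 10 target genes was beyond 1.5-fold. They ran from Ance, which encodes a peptidase, at -0.23 (-0.80 to 0.30) to bi, the T-box gene also called optomotor-blind, at 0.54, with a list median of 0.20. bam, the gene that BMP signalling silences in germline stem cells, was at -0.02 on 21 dBigH1 reads (-0.74 to 0.63). The interval of bam includes the values of all members from sax to shn, so at this depth it could not be placed among them. Only the value of gbb, at -1.13, lies outside it, and the interval of gbb (-2.15 to -0.26) overlaps that of bam.

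The BMP genes were set beside the other signalling pathways of the testis tip as values only. The shares of all genes beyond 1.5-fold were 16.2% above and 17.3% below. The 10 niche JAK-STAT genes had a median of 0.05, with 1 at least 1.5-fold higher and 0 lower, and 5 of them are X-linked. The highest was chinmo, a stem cell maintenance gene, at 1.13 (1.03 to 1.23), and the lowest was the ligand gene upd3 at -0.40 (-0.94 to 0.10). The 19 EGF receptor pathway genes, which act between germ cells and cyst cells, had a median of 0.23, with 1 higher and 2 lower. Their highest gene was rl, the MAP kinase gene on the heterochromatin of 2R, at 1.46 (1.37 to 1.55). Their lowest were the MAP kinase kinase gene Dsor1, at -0.80 (-1.77 to 0.04), and Sos, a Ras activator gene, at -0.73 (-1.17 to -0.31). No member of the BMP list was as high as chinmo or rl, and gbb at -1.13 was below every gene of both lists by its point value.

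**Figure D5:**
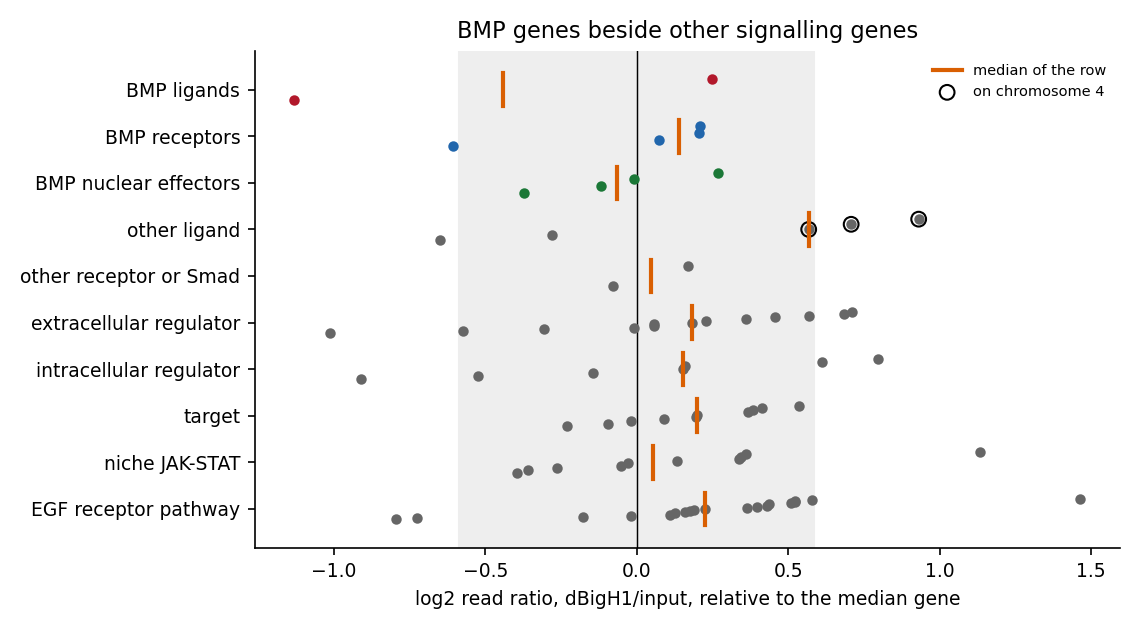
Ratio of every gene of the BMP roles (coloured), the other pathway lists and the comparison lists (grey), one row per list, with orange bars for medians, circles for genes on chromosome 4 and a band for less than 1.5-fold from the median gene. The BMP genes lie in or below the band, and the circled ligands lie at 0.57, 0.71 and 0.93.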

How the data were processed

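Genomic DNA from whole testes was compared between 1 dBigH1 ChIP library and 1 input library. Per the labels' protocols, libraries were made from 3.5 ng of DNA, selected to 300 to 350 bp, amplified for 18 PCR cycles and sequenced as single reads of 50 nt. The submitters' processing notes name build dm3 and, as tools, Bowtie2, R 2.15, CASAVA 1.9 and FastQC 0.10. The method of assigning reads to genes was not given in these sources. Per the file headers, the deposited values are log2 RPKM; they became whole reads (within 0.01 read, 100% of values in both libraries) only when read as log2(RPKM + 1), against 2.16% and 2.18% with no offset. The authors also deposited a MAnorm column, a log2 fold change per the file headers, which from its SD of 0.999 around a mean near 0 was read as a standardized score and used as an alternative.

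Reads and library totals were recovered from the values (Python 3.11.15, numpy 2.4.6, scipy 1.17.1, pandas 2.3.3), and the functions were tested on simulated reads. All listed genes entered, each with at least 1 read in each library. Pairs of genes were compared by the conditional odds ratio of their reads. Reads carry no molecular identifiers, so intervals cover counting error only. Lists and members were chosen with earlier results of these data known. Named genes were the members, genes sharing their reads, nearest genes over 1.5-fold apart from them, and the extremes of each list with any member of it beyond 1.5-fold; others were chosen after their values were seen. A RefSeq table of Release 6 gave synonyms only. Likeness of pattern was not measured, as 2 libraries give 1 ratio a gene. Sequences and promoter motifs, named in the plan, were not analysed here.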

Additional observations from a re-analysis of the deposited data

How the results depend on the processing

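Each group held 1 library, so no replicate could be left out. No paired analysis was possible because each group had 1 sample. With 11 dBigH1 reads in gbb, 32 in sax and 41 in Med, only large differences were detectable there. None of the 10 members reached an RPKM of 5 in the dBigH1 library, so a filter at that level in each library gives no value for them; it leaves fewer genes by construction. Restriction to genes overlapping no other left 6 members. The cause of the changes below was otherwise not tested.

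Without centring, all ratios fall by the median of -1.005, and dpp was at -0.76, tkv at -0.80 and shn at -0.74. The role medians were then -1.45, -0.86 and -1.07 for ligands, receptors and effectors. At least 1.5-fold lower were 10 members, 27 other pathway genes, 9 JAK-STAT and 12 EGF receptor genes, with 0 of any list higher. Of all genes, 76.8% were lower by that factor and 3.03% higher. Relative to the length class, dpp, tkv and shn turned to -0.14, -0.18 and -0.12, receptors to -0.11 and effectors to -0.34. There 1 member was lower, beside 14.8% of all genes. With summed reads the ligands turned to 0.19 and the effectors to 0.14, where all listed genes summed were at 0.40. On the MAnorm score, in its own units, on which 27.0% of all genes were higher and 24.1% lower, role medians were -0.38, -0.0012 and -0.20, with 14 other pathway genes higher and 1 lower, 3 JAK-STAT genes higher, and 8 EGF receptor genes higher and 1 lower. A pseudocount of 5 brought ligands to -0.21 and receptors to 0.032. It left 0 members and 0 genes of the other pathway list on either side, and 0 EGF receptor genes lower. Of all genes, 6.32% were then higher and 2.44% lower. With a pseudocount of 1, 1 member and 1 EGF receptor gene were lower, and 3 other pathway genes higher and 0 lower. The shares of all genes were 12.9% higher and 11.5% lower. At 2-fold, 1 member was lower, 0 other pathway genes were higher and 1 lower, and 0 EGF receptor genes were lower. Percentiles 6 and 93 of all genes were at -1.05 and 1.06, near that threshold. With that filter of 5, 0 other pathway genes were on either side, 0 JAK-STAT genes higher and 0 EGF receptor genes lower. Of the 3750 genes left, 17.6% were higher and 6% lower. Relative to the input class, chosen after seeing the data, 1 member, 2 JAK-STAT genes and 1 EGF receptor gene were lower. So were 15.9% of all genes. Over the alternatives other than the score and no centring, gbb ranged from -1.19 to -0.53, sax from -0.67 to -0.32, Med from -0.43 to -0.20, Mad from -0.51 to -0.08 and put from 0.08 to 0.21, without a change of side. Besides dpp, tkv and shn, Dad (-0.40 to 0.13) and wit (-0.04 to 0.28) changed side.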

Other observations

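Pathway genes not described above included the secreted and membrane-bound regulators of BMP range. magu, which encodes the secreted protein Pentagone, was at 0.46 (0.22 to 0.69), and tok, a gene for a Tolloid-type protease that frees BMPs from inhibitors, at 0.57 (0.42 to 0.72). Its relative tld was at -0.01 (-0.50 to 0.45). sog, which encodes the BMP antagonist Short gastrulation and lies on the X, was at 0.36 (0.15 to 0.56), dlp, a glypican gene, at 0.23 (0.09 to 0.36) and cv-2, a BMP-binding protein gene, at 0.18 (0.01 to 0.35). ltl, another gene for a modulator of Dpp signalling, was at 0.06 (-0.25 to 0.35), and cv, related to tsg, at -0.31 (-1.05 to 0.35).

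Among targets, the paired zinc finger genes salm and salr were at 0.38 and 0.09. pnr, a GATA factor gene, was at 0.41, tup, a LIM homeobox gene, at 0.37, ush, which encodes a partner of Pannier, at 0.20 and vg, a wing selector gene, at 0.20. The homeobox gene zen was at -0.10 on 13 dBigH1 reads (-1.04 to 0.73). brk, which encodes the repressor that BMP signalling removes, was at 0.15 on 28 dBigH1 reads (-0.47 to 0.72), and nej, the CBP co-activator gene, at -0.14 (-0.41 to 0.11).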
